A study of Mus musculus with 39 samples.

Results

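The comparison covers the step from the 1-cell to the 2-cell stage in untreated mouse embryos. It was made between the 3 arrays labelled as untreated 1-cell embryos and the 3 labelled as untreated 2-cell embryos, chosen by these labels alone, which are 6 of the 39 arrays of the series. Embryos were made by in vitro fertilization of B6D2F1 oocytes with ICR sperm, were given no inhibitor and were collected 12 h (1-cell) or 24 h (2-cell) after insemination, with RNA of 100 pooled embryos on each array. The other arrays held oocytes, later untreated embryos, and embryos exposed to the histone deacetylase inhibitors T247 or MGCD0103. An array reads a pool, so that less RNA in every embryo and fewer embryos with a transcript cannot be told apart, and labelling started from poly(A) tails, so that the amount of an mRNA and the length of its tail cannot be told apart either.

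A newly fertilized mouse egg lives on mRNA and protein stored during oocyte growth. Between fertilization and the end of the 2-cell stage much of the stored mRNA is deadenylated and degraded, while the embryonic genome starts to be transcribed, weakly in the 1-cell embryo and then strongly in the 2-cell embryo, which is known as zygotic gene activation (ZGA). A set of transcripts that includes the Zscan4 genes, Zfp352 and the Tdpoz and Usp17l families is known to peak at the 2-cell stage, and ribosomal genes are among those switched on with them.

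From the 1-cell to the 2-cell stage, 8338 of 15989 genes passed the test for differentially expressed genes (DEGs), which is 52.1% of all genes tested. Of these, 2973 (18.6%) were higher and 5365 (33.6%) lower in 2-cell embryos. Among the genes well above background on all 6 arrays, the 3 largest rises were those of BB287469, the metallothionein gene Mt1 and Zfp622, and the 3 largest falls those of Bms1, Gspt2 and Papolg. The log2 fold change (LFC) is the mean of the 2-cell arrays minus the mean of the 1-cell arrays, and a gene counted as a DEG when its LFC reached 1 in either direction and its p in limma was below 0.05 after Benjamini-Hochberg adjustment. For 11038 genes (69%) the 3 values of one stage lay wholly above or below the 3 of the other. Rises reached further than falls. An LFC of at least 2 in size was reached by 1778 genes that rose and 2006 that fell, of at least 4 by 634 and 60, of at least 6 by 170 and 0, and of at least 8 by 31 and 0. The median LFC of all genes was -0.48. When each array was scaled to its 75th percentile instead, the median was 0.11, with 4174 DEGs (26.1% of all genes) higher and 3134 (19.6%) lower, so the share of higher calls moved from 35.7% to 57.1%. With that scaling 6107 of the 8338 DEGs were called in the same direction and 0 in the opposite one. Neither scaling used the spike-in RNA described below. An LFC is therefore relative to the other signals of an array and is not an amount per embryo.

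**Figure D1:**
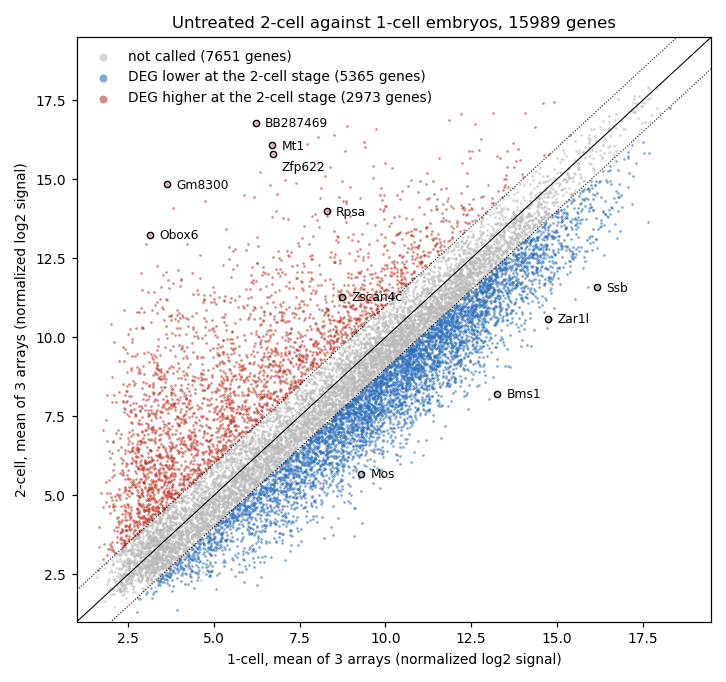
Mean normalized log2 signal of each of the 15989 genes on the 3 untreated 1-cell arrays (x axis) and the 3 untreated 2-cell arrays (y axis), with DEGs coloured by direction, the solid line at no change and the dotted lines at an LFC of 1 in size. Points above the lines reach further from the diagonal (BB287469, Mt1, Gm8300) than points below them (Bms1, Mos).

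Depth and array quality bear on how far single values can be read. Each array carried 55681 probes on 59305 spots. Of the spots, between 46.8 and 50.6% gave a signal well above background in 1-cell and between 48.3 and 55.01% in 2-cell embryos, and 0 were saturated. The 3 1-cell arrays correlated with each other at 0.991 to 0.994 over genes. Among the 2-cell arrays, replicates 2 and 3 correlated at 0.994, while replicate 1 correlated with them at 0.935 and 0.945. Replicate 1 correlated with the 1-cell arrays at 0.886 to 0.891, replicates 2 and 3 at 0.800 to 0.817. Each replicate number lay on a slide of its own that held both stages, and the slide of replicate 1 was also scanned apart from the other slides. The median local background on the arrays of replicates 1 to 3 was 79, 66 and 66 in 1-cell and 75, 66 and 65 in 2-cell embryos. The signal of the spike-in RNA, which is added in a fixed amount, lay 3.83, 4.997 and 4.83 above the 75th percentile of the array (log2) on the 1-cell arrays and 5.09, 6.07 and 6.11 on the 2-cell arrays. For each replicate number it thus lay further above that percentile at the 2-cell stage, which no scaling used here takes into account. Replicate 1 was thus the lowest in spike-in signal and the highest in local background at both stages, and the part of slide and scan in its values was not tested. For this reason the values of all 3 2-cell arrays are given below. The SE and p given below use a spread per gene pooled over all arrays of the fit, which include 4-cell and treated embryos. Where replicate 1 stands apart, they do not measure the spread of the 2-cell arrays printed beside them.

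The promoters of the 3 genes with the largest rise and of the falling genes Bms1, Papolg and Ip6k2 are shown, because these 6 genes mark both ends of the change among genes well above background on all 6 arrays. Gspt2 stands second among these falls and had no entry in the promoter table. Each sequence comes from RefSeq (build GRCm38.p6) and runs from 250 bases before to 50 bases after the annotated start, read 5′ to 3′ on the strand of the gene. Capitals mark matches on either strand to 9 motifs searched, which were CCAAT (NF-Y), GGGCGG (Sp and Klf factors), CCGGAAG (ETS factors), TCAAGGNCA (Nr5a2 and Esrrb), TAATCC (Otx and Obox type homeobox factors), TATAAA (bound by TBP), CACGTG (E-box), AAGATGGC (YY1) and GCATGCGC (NRF1), and no listed motif contains another.
BB287469 (chr12:87816327-87816626, plus strand): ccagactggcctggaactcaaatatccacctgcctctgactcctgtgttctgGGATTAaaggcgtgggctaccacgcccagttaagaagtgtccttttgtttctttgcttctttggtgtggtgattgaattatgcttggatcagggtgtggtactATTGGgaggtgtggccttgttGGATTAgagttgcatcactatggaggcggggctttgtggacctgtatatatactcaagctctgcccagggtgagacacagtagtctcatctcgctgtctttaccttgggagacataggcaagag
Mt1 (chr8:94178839-94179138, plus strand): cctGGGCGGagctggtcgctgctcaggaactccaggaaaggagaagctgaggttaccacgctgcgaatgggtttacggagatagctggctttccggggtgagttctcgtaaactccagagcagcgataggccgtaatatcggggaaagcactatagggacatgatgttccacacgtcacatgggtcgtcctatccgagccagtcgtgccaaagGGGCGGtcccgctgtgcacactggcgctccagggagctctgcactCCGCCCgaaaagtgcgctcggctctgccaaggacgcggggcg
Zfp622 (chr15:25984116-25984415, plus strand): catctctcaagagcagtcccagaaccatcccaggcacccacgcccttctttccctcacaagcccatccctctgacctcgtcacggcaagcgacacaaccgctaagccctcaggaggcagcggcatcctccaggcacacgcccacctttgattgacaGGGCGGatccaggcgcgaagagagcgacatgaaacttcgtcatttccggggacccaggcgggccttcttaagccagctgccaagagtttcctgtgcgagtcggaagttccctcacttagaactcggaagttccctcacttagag
Bms1 (chr6:118419368-118419667, minus strand): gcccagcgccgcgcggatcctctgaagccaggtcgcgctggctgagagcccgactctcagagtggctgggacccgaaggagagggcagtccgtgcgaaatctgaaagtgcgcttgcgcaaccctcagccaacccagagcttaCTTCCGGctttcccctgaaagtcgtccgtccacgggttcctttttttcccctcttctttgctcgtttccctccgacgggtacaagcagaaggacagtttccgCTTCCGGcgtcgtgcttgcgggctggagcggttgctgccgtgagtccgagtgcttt
Papolg (chr11:23895221-23895520, minus strand): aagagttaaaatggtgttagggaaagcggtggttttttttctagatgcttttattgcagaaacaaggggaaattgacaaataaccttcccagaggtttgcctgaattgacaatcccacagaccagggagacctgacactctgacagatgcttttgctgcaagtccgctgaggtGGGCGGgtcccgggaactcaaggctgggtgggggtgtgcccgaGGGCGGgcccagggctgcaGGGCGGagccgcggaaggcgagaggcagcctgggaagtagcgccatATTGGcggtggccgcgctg
Ip6k2 (chr9:108783562-108783861, plus strand, the first of 2 annotated starts): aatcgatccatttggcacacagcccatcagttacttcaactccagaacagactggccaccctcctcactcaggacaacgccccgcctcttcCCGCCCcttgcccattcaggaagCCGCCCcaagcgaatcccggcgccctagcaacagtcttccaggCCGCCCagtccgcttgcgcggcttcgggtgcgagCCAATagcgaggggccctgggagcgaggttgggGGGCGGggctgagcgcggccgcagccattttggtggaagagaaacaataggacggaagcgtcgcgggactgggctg

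The promoter of BB287469 held 2 matches to TAATCC and 1 to CCAAT. Of all promoters in the table, 7.16% held TAATCC and 37.9% CCAAT. The promoter of Mt1 held 3 matches to GGGCGG and that of Zfp622 held 1, a motif found in 35.9% of promoters. Bms1 held 2 matches to CCGGAAG, which 9.12% of promoters held. Papolg held 3 matches to GGGCGG and 1 to CCAAT, and Ip6k2 held 4 and 1. The remaining motifs were found in 1.61% (TCAAGGNCA), 14.2% (TATAAA), 7.24% (CACGTG), 2.88% (AAGATGGC) and 2.80% (GCATGCGC) of promoters. A match is a run of letters and not a measured binding site.

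Among the genes well above background on all 6 arrays, the largest rise was that of BB287469. Its normalized log2 signal was 6.54, 5.90 and 6.22 on the 1-cell arrays (replicates 1 to 3) and 17.12, 16.52 and 16.73 on the 2-cell arrays. All 2-cell arrays thus lay far above all 1-cell arrays, and replicate 1 was the highest of them. The LFC was 10.57 (SE 0.21, adjusted p = 4.2e-18 in limma), and another probe of the gene gave 9.30. Mt1 and Mt2 encode metallothioneins, small proteins that bind zinc and copper. Mt1 stood at 6.17, 6.36 and 7.57 in 1-cell and at 14.46, 16.99 and 16.78 in 2-cell embryos (LFC 9.38, SE 0.47, adjusted p = 1.1e-12), and another probe gave an LFC of 4.63. Mt2 stood at 7.59, 7.56 and 8.995 and at 14.90, 17.15 and 17.01 (LFC 8.31, SE 0.42, adjusted p = 1.2e-12). The largest rises and falls were picked among genes whose stages did not overlap. For Mt1 and Mt2 replicate 1 was more than 2 log2 units below the other 2-cell arrays. Their SE and p use the pooled spread, while the SD of the 2-cell arrays alone was 1.40 for Mt1 and 1.26 for Mt2. Zfp622, a zinc finger protein that takes part in maturation of the large ribosomal subunit, stood at 6.72, 6.71 and 6.69 and at 15.30, 15.99 and 16.09 (LFC 9.09, SE 0.17, adjusted p = 3.3e-18).

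The other genes of the 12 largest rises had an LFC between 7.91 and 8.91. They were AA414992 (LFC 8.91) and D13Ertd608e (8.41), which RefSeq lists as RNAs without a protein class, the transcribed pseudogene Gm4850 (8.63), Ctsl (8.27), which encodes the lysosomal protease cathepsin L, Prps1 (8.19), an enzyme that makes the sugar phosphate for nucleotide synthesis, the cystatin gene Cst9 (8.08), and Gm20767 and Gm2022 (7.91 each). In Ctsl, replicate 1 was the lowest 2-cell array at 13.81, against 14.81 and 14.74. In Cst9 it was the highest at 14.13, against 13.01 and 13.12. In Gm2022 the 3 arrays were within 0.12 of each other, at 15.04, 14.92 and 14.96.

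**Figure D2:**
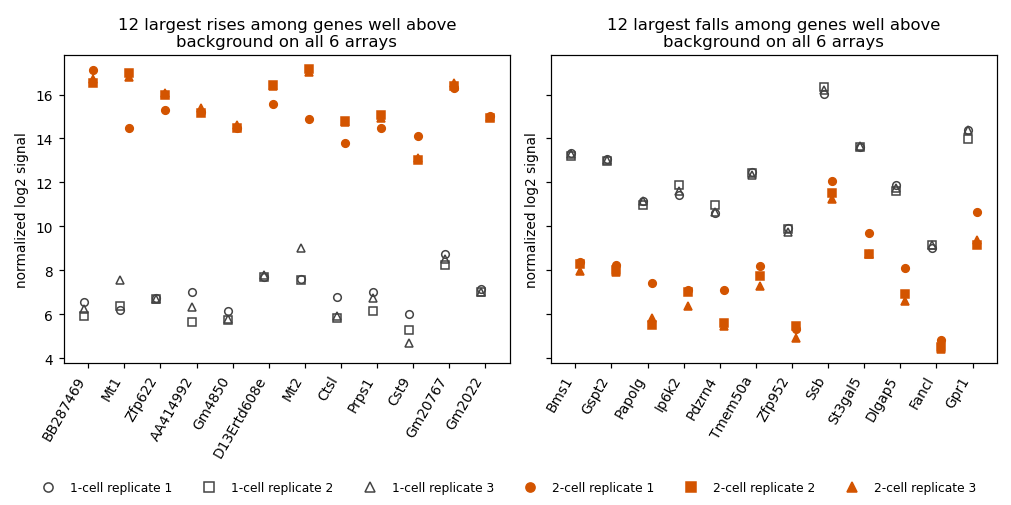
Normalized log2 signal on each of the 6 untreated arrays (open symbols 1-cell, filled symbols 2-cell, one shape per replicate) for the 12 genes with the largest rise (left) and the 12 with the largest fall (right) among those well above background on all 6 arrays. Genes were picked under the condition that the stages did not overlap. Replicate 1 of the 2-cell stage (filled circles) lies below the other filled symbols for Mt1 and Mt2 and above them for Papolg, Pdzrn4 and Gpr1. Signals of different genes come from different probes and are not comparable.

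The largest fall among the genes well above background on all 6 arrays was that of Bms1, a GTPase needed to assemble the small ribosomal subunit. Its signal was 13.33, 13.19 and 13.29 in 1-cell and 8.39, 8.27 and 7.98 in 2-cell embryos, with an LFC of -5.05 (SE 0.13, adjusted p = 6.9e-17). Gspt2, a translation termination factor, stood at 13.07, 12.98 and 13.02 and at 8.23, 8.01 and 7.94 (LFC -4.96, SE 0.11, adjusted p = 1.8e-17), and another probe of the gene gave only -0.92. In both genes replicate 1 was as low as the other 2-cell arrays to within 0.41. Papolg, a nuclear poly(A) polymerase, stood at 11.16, 10.99 and 11.17 and at 7.43, 5.53 and 5.84 (LFC -4.84, SE 0.31, adjusted p = 3.4e-11), with replicate 1 the highest of the 2-cell arrays.

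The remaining 9 of the 12 largest falls had an LFC between -4.80 and -4.52. They included Ip6k2 (LFC -4.80), an inositol phosphate kinase, Pdzrn4 (-4.69), Tmem50a (-4.67), the zinc finger gene Zfp952 (-4.62) and Ssb (-4.59), which encodes the La protein that protects the ends of new small RNAs. A second probe for Ssb gave -4.66. The others were St3gal5 (-4.58), the enzyme that makes the ganglioside GM3, Dlgap5 (-4.54), a spindle protein, Fancl (-4.52), a ubiquitin ligase of DNA crosslink repair, and Gpr1 (-4.52), a receptor for chemerin. Ssb went from 16.02, 16.35 and 16.19 to 12.05, 11.51 and 11.22, so that all 3 2-cell arrays lay more than 3 log2 units below the 1-cell arrays.

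Some genes were read at one stage only, and for these a fold is a bound, with the dim stage set to the lowest signal that passed as well above background. Of 22328 named genes on the array, 828 were well above background on all 3 2-cell arrays and on no 1-cell array, and 266 the other way round, of which 567 and 142 were among the genes tested. Bounds reached higher for the genes that appeared. Gm8300 stood at 14.95, 14.62 and 14.95 in 2-cell embryos and was not well above background at 3.88, 3.11 and 3.88 in 1-cell embryos, which is at least 2112-fold higher (adjusted p = 2.1e-17). The bounds of the others among the 10 largest were at least 846-fold for Tdpoz9, 824-fold for the homeobox gene Obox6, 548-fold for Guca1a, a guanylate cyclase activator, 517-fold for Pramel17, 459-fold for Gm12789, 442-fold for Pheta1, a protein of endosomal traffic, 401-fold for Pramel6, 333-fold for the snoRNA host gene Snhg3 and 319-fold for Fthl17d, a ferritin-like gene. Of these, Guca1a, Gm12789 and Pramel6 did not pass the detection filter and have no p. Pheta1 differed most among the 2-cell arrays, at 8.94 on replicate 1 against 13.62 and 13.52.

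The genes that were read only in 1-cell embryos lay nearer to background. Klk15, a kallikrein protease, stood at 7.66, 7.59 and 7.50 in 1-cell embryos and was not well above background in 2-cell embryos, at least 19.7-fold lower. The bounds of the next were at least 14.7-fold lower for the zinc finger gene Zfp418, 13.9-fold for Pir, 13.8-fold for Ginm1, 12.3-fold for the secreted protein gene Fstl1, 12.1-fold for Chid1, 12.0-fold for Stim2, a calcium sensor of the endoplasmic reticulum, 11.9-fold for Cltrn, 11.9-fold for the centriolar protein gene Cep44 and 11.6-fold for the mitochondrial carrier Slc25a35. Klk15, Cltrn and Slc25a35 did not pass the detection filter and were not tested. The 2-cell values of these 10 genes lay at 4.63 or below on every array.

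Of 34 transcripts listed as activated with the genome, 29 were tested, 26 rose and 2 fell, with a median LFC of 5.77, against 18.6% of all genes that rose. Among those at the top were the bounded genes Gm8300 and Tdpoz1 (at least 138-fold higher, adjusted p = 2.5e-14) and Spz1 (at least 104-fold, adjusted p = 4.6e-16). The zinc finger genes Zscan4c, Zscan4a, Zscan4e and Zscan4f, known for telomere maintenance in totipotent-like cells, rose by LFCs of 2.54, 2.51, 5.77 and 7.01. Zscan4c stood at 8.89, 8.56 and 8.76 in 1-cell and at 12.75, 10.29 and 10.80 in 2-cell embryos, so that replicate 1 was the highest, and Zscan4f at 8.68, 8.19 and 8.32 and at 16.15, 14.90 and 15.17. Zscan4, Usp17l, Tdpoz and Obox genes are near-identical copies, so that one probe may read several of them and single members are uncertain.

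Other members of that list are single genes. Zfp352, a zinc finger gene without introns, rose from 8.40, 8.82 and 9.01 to 14.79, 15.08 and 15.00 (LFC 6.22, SE 0.14, adjusted p = 1.8e-17). Zfp42, a marker of pluripotent cells also known as Rex1, rose by an LFC of 5.06, Tcstv3 by 4.45, Snai1, a repressor of epithelial genes, by 4.03, and Dppa4, a chromatin protein of early embryos, by 3.61. Tcstv1 rose by 2.53 and the growth factor gene Fgf1 by 1.83, although another probe for Fgf1 gave -2.68. The 2 members that fell were Arg2, mitochondrial arginase (LFC -2.36), and Sp110 (-2.32), for which other probes gave 1.75 and 1.86. Dppa2, the partner of Dppa4, stood at 11.31, 10.86 and 11.41 and at 10.36, 10.55 and 10.63 (LFC -0.68) and was not called. Of the 5 members not tested, Olfr376, Pramel6, Pramel7 and Tdpoz4 were well above background on all 3 2-cell arrays and on no 1-cell array, and Tdpoz3 on 3 and 1.

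The 5 Obox homeobox genes, which encode DNA-binding proteins of oocytes and early embryos, moved in opposite directions. Obox6 rose from 3.79, 2.71 and 2.90, not well above background, to 12.36, 13.63 and 13.75, at least 824-fold (adjusted p = 1.8e-15). Obox1 (LFC -1.69), Obox5 (-1.82), Obox7 (-2.12) and Obox3 (-2.12) fell. Obox5 stood at 15.54, 15.78 and 15.56 in 1-cell and at 15.28, 12.85 and 13.29 in 2-cell embryos (SE 0.37, adjusted p = 0.00018), so that replicate 1 lay close to the 1-cell arrays. Obox1 likewise went from 17.57, 17.57 and 17.47 to 16.61, 15.30 and 15.63. The SE and p of Obox5 use the pooled spread and do not measure the spread of its 2-cell values. Other probes for Obox3 gave LFCs of 5.37 and 10.15, and its direction depends on the probe.

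Of 61 genes known as oocyte or maternal effect genes, 59 were tested, 48 fell and 2 rose, with a median LFC of -1.95, against 33.6% of all genes that fell. After scaling to the 75th percentile 42 fell and 2 rose (median -1.37), where 19.6% of all genes fell. Zar1l, an RNA-binding protein that keeps stored mRNA silent, went from 14.93, 14.59 and 14.75 to 10.73, 10.48 and 10.56 (LFC -4.17, SE 0.12, adjusted p = 5.2e-16). Its relative Zar1 also fell (LFC -3.15). Mos, the kinase that holds the egg at metaphase, went from 9.35, 9.23 and 9.32 to 5.88, 5.75 and 5.43 (LFC -3.61, SE 0.13, adjusted p = 1.7e-14), and Plat, a protease of the egg that is translated during maturation, fell too (LFC -3.18). In these genes all 2-cell arrays were low, replicate 1 among them.

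Genes of the subcortical maternal complex, a protein lattice needed for the first cleavages, fell by less. These were Padi6 (LFC -2.19), Tle6 (-2.13), Nlrp5 (-1.93), Khdc3 (-1.19) and Ooep (-2.55). The histone chaperone Npm2 (LFC -1.45), the oocyte linker histone H1f8 (-1.91) and Dppa3 (-1.18), which shields the maternal genome from demethylation, fell as well. So did Bmp15 (-1.86) and Gdf9 (-1.14), secreted factors of the oocyte. The zona pellucida gene Zp3 fell (-1.14), while Zp1 (LFC -0.67) and Zp2 (-0.92) were not called.

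Part of these maternal genes moved less on replicate 1 than on the other 2-cell arrays. Rfpl4, an oocyte ubiquitin ligase partner, stood at 16.07, 16.10 and 15.92 in 1-cell and at 14.97, 11.31 and 12.05 in 2-cell embryos (LFC -3.25, SE 0.53, adjusted p = 1.7e-05). Trim61 stood at 17.72, 17.65 and 17.70 and at 17.34, 14.88 and 15.30 (LFC -1.85, SE 0.36, adjusted p = 0.00014). The SE and p of Rfpl4 and Trim61 use the pooled spread and do not measure the spread of their 2-cell values. Nlrp4f (LFC -2.76), Oosp3 (-3.39) and Bcl2l10 (-1.72), a relative of Bcl2 in oocytes, showed the same order, with replicate 1 the highest of the 2-cell arrays. The 2 members that rose were Rfpl4b, at least 225-fold higher (adjusted p = 5.8e-13), and Ube2dnl1, at least 7.13-fold higher (adjusted p = 4.9e-10), both not well above background on any 1-cell array. Figla, a transcription factor of growing oocytes, was not tested and was read on all 3 1-cell arrays and on no 2-cell array.

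Of 38 factors known for clearing maternal mRNA, 16 fell and 6 rose (median LFC -0.85), where 33.6% of all genes fell and 18.6% rose. After scaling to the 75th percentile 10 fell and 6 rose (median -0.27), where 19.6% of all genes fell and 26.1% rose. Pabpn1l, an oocyte poly(A)-binding protein that works with Btg4, went from 14.85, 14.84 and 14.79 to 11.59, 10.03 and 10.14 (LFC -4.24, SE 0.25, adjusted p = 1.5e-11). Btg4, the adaptor of the deadenylase, fell (LFC -1.24), as did the deadenylase subunit Cnot7 (-1.29). Cnot6l (LFC -0.87) was not called. Cnot11 fell (LFC -3.06), with another probe at 0.83. Rises were found for Zfp36l2, which binds AU-rich elements (at least 114-fold, adjusted p = 9.3e-13), for the scaffold Cnot1 (LFC 2.49), for the uridyltransferases Tut4 (at least 33.5-fold, adjusted p = 1e-10) and Tut7 (1.94), and for the general poly(A)-binding protein Pabpc1 (3.96). Pabpc1 stood at 9.32, 9.38 and 9.25 and at 12.55, 13.80 and 13.47, with no overlap.

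**Figure D3:**
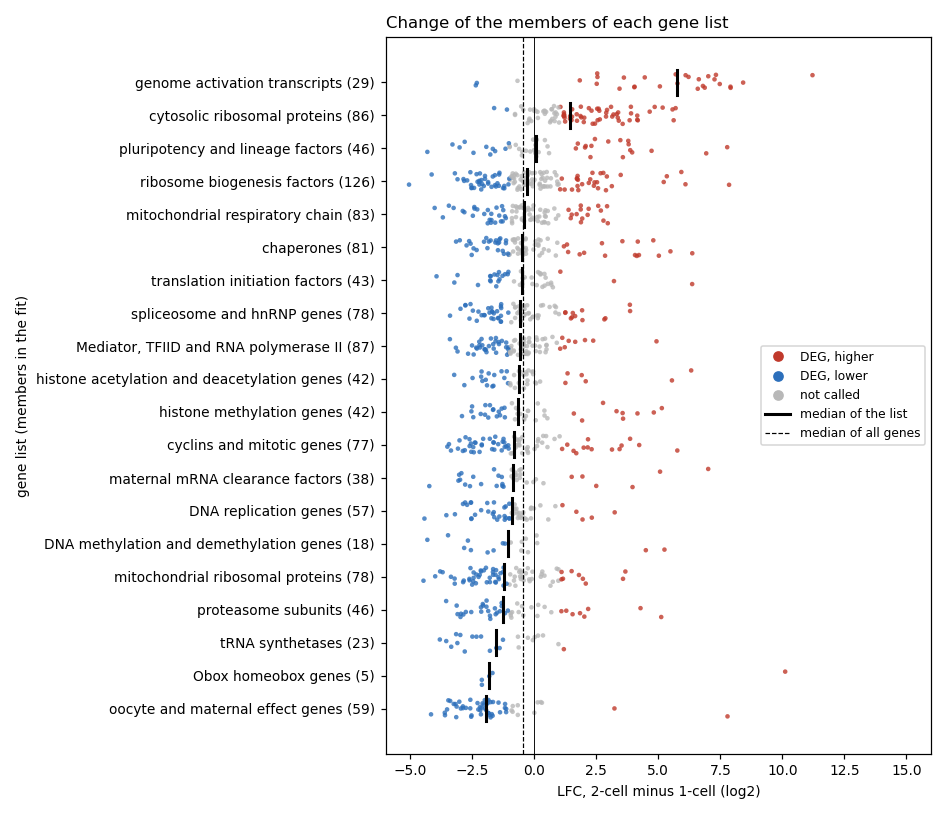
LFC of each tested member of 20 gene lists (points, coloured by call), with the median of the list (black bar), the median of all genes (dashed line, -0.48) and the number of members tested in brackets. Genome activation transcripts (median 5.77) and cytosolic ribosomal proteins (1.44) lie to the right and oocyte and maternal effect genes (-1.95) to the left, while the medians of ribosome biogenesis factors, the respiratory chain, chaperones and translation initiation factors are below 0 here and above 0 after scaling to the 75th percentile.

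Of 86 cytosolic ribosomal protein genes tested, 52 rose, 2 fell and 32 were not called (median LFC 1.44), where 18.6% of all genes rose. After scaling to the 75th percentile 66 rose and 1 fell (median 1.98), where 26.1% of all genes rose. Rpsa stood at 8.38, 8.49 and 8.03 in 1-cell and at 13.27, 14.43 and 14.29 in 2-cell embryos (LFC 5.70, SE 0.21, adjusted p = 1.4e-14). Rps19 (LFC 5.62) and the intronless copy Rpl10l (5.57) followed. The members that fell were Rack1, a scaffold on the small subunit (LFC -1.62), and Rpl37 (-1.11). Many ribosomal protein genes have processed copies in the genome that a probe may also read. Replicate 1 showed a smaller rise, with a median over the list of 0.85 on replicate 1, 1.70 on replicate 2 and 1.71 on replicate 3.

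Factors that build ribosomes moved in both directions, as did all genes. Of 126 ribosome biogenesis factors tested, 29 rose and 40 fell, with a median LFC of -0.29 that was 0.27 after scaling to the 75th percentile, with 40 up and 31 down. Of all genes, 18.6% rose and 33.6% fell, and 26.1% and 19.6% after that scaling. The nucleolar protein gene Nol11, read on 1 of 3 1-cell arrays, rose by an LFC of 7.85. The rRNA methyltransferases Nop2 (5.93) and fibrillarin (Fbl, 3.48) rose, as did Nop56 (2.92), whose other probes gave between -2.05 and 4.38. Next to Bms1, the helicase Ddx55 fell (LFC -4.14). Nop2 stood at 7.90, 7.33 and 7.61 and at 12.64, 14.06 and 13.92, and Ddx55 at 8.99, 9.57 and 9.32 and at 4.74, 5.54 and 5.17, so both changes were seen on all arrays.

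Lists of mitochondrial translation, protein breakdown and tRNA charging had medians below that of all genes under both scalings. Of 78 mitochondrial ribosomal protein genes, 41 fell and 9 rose (median LFC -1.24, and 30 and 14 with a median of -0.66 after scaling to the 75th percentile), with Mrpl47 at -4.47 and Mrpl49 at 3.67. Of 46 proteasome subunits tested, 25 fell and 8 rose (median -1.25, and 18 and 9 with a median of -0.70 after that scaling). Psmd10, an assembly factor, fell (LFC -3.56), while the immunoproteasome subunit Psmb9 stood at 1.94, 2.78 and 2.68 in 1-cell and at 4.40, 9.37 and 8.98 in 2-cell embryos, was well above background on 2 of the 2-cell arrays and was at least 20.3-fold higher (adjusted p = 1.8e-05). Of 23 tRNA synthetases, 14 fell and 1 rose (median -1.54, and 11 and 2 with a median of -0.96 after that scaling), with Lars at -3.81 and Aars at 1.19. Of all genes, 33.6% fell, and 19.6% after that scaling.

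Several large lists had medians within 0.5 of that of all genes. Over all genes, 33.6% fell and 18.6% rose, and 19.6% and 26.1% after scaling to the 75th percentile. Of 43 translation initiation factors, 18 fell and 3 rose (median LFC -0.49), and 10 and 8 after scaling to the 75th percentile (median 0.07). Eif1a rose by 6.36 (read on 2 of 3 1-cell arrays), Eif1ad by 3.21, with another probe at -2.82, and Eif3e fell (LFC -3.95). Of 78 spliceosome and hnRNP genes, 30 fell and 12 rose (median -0.56, and 20 and 17 with a median of -0.0049 after that scaling), from Prpf6 at -3.40 to Snrpd2 at 3.86. Of 87 genes of Mediator, TFIID and RNA polymerase II, 33 fell and 8 rose (median -0.60, and 23 and 14 with a median of -0.04 after that scaling), with Med17 at -3.41 and Med29 at 4.92. Polr2a, the catalytic subunit of RNA polymerase II, stood at 7.91, 8.28 and 8.28 and at 9.08, 9.003 and 9.10 (LFC 0.90) and was not called.

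Of 81 chaperone genes, 26 fell and 16 rose, with a median LFC of -0.48. After scaling to the 75th percentile 14 fell and 20 rose (median 0.13). Over all genes, 33.6% fell and 18.6% rose, and 19.6% and 26.1% after that scaling. Single members moved in both directions. Bag3, a co-chaperone of Hsp70, was at least 82.6-fold higher (adjusted p = 1.2e-13). Hspa1a, a heat-inducible Hsp70 gene known as an early product of ZGA, stood at 7.15, 6.94 and 6.91 and at 10.65, 10.54 and 10.46 (LFC 3.55, SE 0.21, adjusted p = 1.8e-11), with the 3 2-cell arrays close together. The constitutive Hspa8 rose by 1.32, with other probes between -0.36 and 0.43, and Dnajb4 fell (LFC -3.16). Of 83 respiratory chain genes tested, 26 fell and 15 rose (median -0.42), from Ndufa8 at -4.02 to Uqcrc1 at 2.96. After scaling to the 75th percentile 18 fell and 21 rose (median 0.12).

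Among cell cycle genes, falls outnumbered rises. Of 57 DNA replication genes, 28 fell and 5 rose (median LFC -0.91), and 18 and 7 after scaling to the 75th percentile (median -0.36), where 33.6% and 19.6% of all genes fell. Rfc3, a clamp loader subunit (LFC -4.43), the helicase subunit Mcm7 (-2.15) and the sliding clamp Pcna (-1.90) fell, while the helicase Recql4 rose by 3.24. Of 77 cyclin and mitotic genes tested, 35 fell and 14 rose (median -0.82), and 25 and 18 after that scaling (median -0.26). Ccnb1, the B-type cyclin of mitosis, stood at 16.40, 16.29 and 16.35 and at 15.32, 12.995 and 13.60 (LFC -2.37), and Ccnb3 fell (LFC -3.51). Ccne1, the cyclin of S phase entry, rose from 10.49, 11.02 and 10.76 to 14.24, 15.47 and 15.25 (LFC 4.23, SE 0.22, adjusted p = 1.8e-12), and Ccnd1 rose by 3.52. Cdk1, read on 2 of 3 1-cell arrays, rose by 5.76 with the probe used, while its other probes gave between -0.89 and 3.71.

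Of 18 genes of DNA methylation tested, 9 fell and 2 rose (median LFC -1.07), and 7 and 2 after scaling to the 75th percentile (median -0.48), where 33.6% and 19.6% of all genes fell. The maintenance methyltransferase Dnmt1 went from 12.72, 12.68 and 12.72 to 9.58, 9.17 and 8.93 (LFC -3.48, SE 0.12, adjusted p = 5.1e-15). The de novo enzymes Dnmt3a (LFC -2.83) and Dnmt3b (-1.64), the dioxygenases Tet3 (-2.68) and Tet1 (-1.89), and Uhrf1 (-2.56), which brings Dnmt1 to replicated DNA, fell, although other probes for Tet1 gave 0.31 and 3.05. Zfp57, which guards imprinted sites, had the largest fall at -4.32, from 15.61, 15.56 and 15.43 to 11.23, 11.17 and 11.25. Uhrf2 rose by 5.25, from 5.69, 5.62 and 5.82 to 10.11, 11.50 and 11.25, and Tet2 was at least 21.3-fold higher (adjusted p = 3.1e-08).

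Among histone acetylation and deacetylation genes, 16 of 42 fell and 6 rose (median LFC -0.62), where 33.6% of all genes fell and 18.6% rose. After scaling to the 75th percentile 11 fell and 6 rose (median -0.05), where 19.6% of all genes fell and 26.1% rose. The class I deacetylases went in different directions. Hdac1 rose from 8.51, 7.75 and 8.02 to 13.79, 14.82 and 14.64 (LFC 6.32, SE 0.21, adjusted p = 4.1e-15), and its other probes gave 4.17 to 5.29. Hdac2 (LFC -1.62) and Hdac8 (-2.49) fell. Hdac3 stood at 5.62, 7.02 and 6.21 in 1-cell embryos and was not well above background on any 2-cell array, at least 6.58-fold lower (adjusted p = 8.8e-07). Mta2, a subunit of the NuRD complex that contains Hdac1, rose by 5.55, and Rcor2, a subunit of the CoREST complex, by 2.07. The acetyltransferase Hat1 fell (LFC -2.82, another probe 0.36). Brd2, a reader of acetylated histones, rose by 1.25, with another probe at -1.29.

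Of 42 histone methylation genes, 17 fell and 9 rose (median LFC -0.66), and 11 and 10 after scaling to the 75th percentile (median -0.10), where 33.6% and 19.6% of all genes fell and 18.6% and 26.1% rose. Prdm9 (LFC 5.14) and Suv39h1 (4.82), a methyltransferase of heterochromatin, each read on 1 of 3 1-cell arrays, rose. The demethylases of H3K4 Kdm5b and Kdm5a rose by 4.16 and 3.31, with Kdm5b at 9.79, 10.17 and 10.01 and then at 13.52, 14.55 and 14.36. Kdm2b (LFC -2.92) and the Polycomb methyltransferase Ezh2 (-2.16) fell. Ezh2 stood at 14.52, 14.62 and 14.55 and at 13.36, 11.87 and 11.98, with replicate 1 between the 1-cell arrays and the other 2-cell arrays.

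Of 46 pluripotency and lineage factors tested, 17 rose and 11 fell (median LFC 0.06), and 18 and 9 after scaling to the 75th percentile (median 0.67), where 18.6% and 26.1% of all genes rose. Gabpa, an ETS factor, was at least 200-fold higher (adjusted p = 2.9e-15), Klf5, read on 1 of 3 1-cell arrays, rose by 6.93 from 3.64, 3.73 and 4.40 to 9.60, 11.57 and 11.40, and Myc was at least 9.08-fold higher (adjusted p = 1e-09). Sox2 rose by 2.04 and Yy1 by 2.30. Nfya (LFC -3.30), a subunit of NF-Y, Sall4 (-2.46), Tfap2c (-1.94), Klf17 (-1.78) and Esrrb (-1.68) fell. Pou5f1, the core factor of pluripotency, stood at 13.48, 13.48 and 13.10 and at 13.11, 13.23 and 13.24 (LFC -0.16, and 0.40 after scaling to the 75th percentile) and Nanog at 6.55, 6.02 and 5.76 and at 6.48, 5.82 and 6.16 (LFC 0.04, and -0.12 after quantile normalization). Neither was called. Nr5a2 had an LFC of -0.99 with the probe used and 2.39 with another.

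Markers of other cells were checked on the same arrays, where 18.6% of all genes rose and 33.6% fell. Of the 19 cumulus cell markers, 9 were tested, 2 rose (Runx1, at least 4.73-fold with adjusted p = 3.7e-09, and Cd44 with an LFC of 1.79) and Cyp19a1 fell (LFC -3.49). Their summed log2 level was 14.04 to 14.21 in 1-cell and 13.78 to 13.86 in 2-cell embryos, and Amh, Lhcgr and Ptx3 were well above background on none of the 6 arrays. Of the 17 sperm and spermatid markers, 10 were tested, 4 rose and 2 fell. The log2 of their summed signals was 12.69 to 12.94 in 1-cell and 12.47 to 12.81 in 2-cell embryos. Acrbp, read on 2 of 3 1-cell arrays, rose by 4.68 and Prm1 was at least 4.53-fold higher (adjusted p = 1.8e-06), while Prm2 fell (LFC -1.48) and Tnp2, Odf1 and Smcp were read on no array. Their part in the changes above was not tested.

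Of the 20 markers of later embryos, 16 were tested, 7 rose and 3 fell. The log2 of their summed signals was 13.12 to 13.29 in 1-cell and 13.03 to 13.46 in 2-cell embryos. The water channel gene Aqp3 was at least 66.6-fold higher (adjusted p = 5e-08), with 6.93 on replicate 1 against 11.15 and 10.77, and Krt18, read on 1 of 3 1-cell arrays, rose by 5.94. Gata3 fell (LFC -2.81). Of the 12 blood cell markers, 5 were tested and 3 rose. The log2 of their summed signals was 7.43 to 7.75 in 1-cell and 10.81 to 11.82 in 2-cell embryos. Lyz1, not tested, was well above background on all 3 2-cell arrays and on no 1-cell array. The globin genes Hba-a1 (at least 40.8-fold higher, adjusted p = 1.1e-14) and Hba-a2 (LFC 3.85) and Cd52 (4.05, read on 1 of 3 1-cell arrays) rose on all 3 2-cell arrays, while the beta globin genes Hbb-bs, Hbb-bt and Hbb-b2 and the erythroid gene Alas2 were well above background on none of the 6 arrays.

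Replicate 1 of the 2-cell stage showed part of the change seen in the others. Genes were picked by a change of at least 1 in the mean of 2 of the 2-cell arrays against the 1-cell mean, and the change on the remaining array was divided by it. On replicate 1 the median share was 0.604 for 3354 genes higher and 0.619 for 5835 genes lower in replicates 2 and 3. On replicate 2 the shares were 1.20 and 1.19, and on replicate 3 they were 1.14 and 1.13. The sign on replicate 1 was the same for 88.5% of the genes that were higher and 96.5% of those that were lower, and the share was under 0.5 for 41.7% and 36.8%. Because each array is measured against the other 2, these shares are descriptions and not tests.

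The share on replicate 1 was not equal over gene groups. For the 26 genome activation transcripts it was 1.00, against 0.986 on replicate 2 and 1.00 on replicate 3, and the median change of the list was 6.05, 5.49 and 5.69 on replicates 1 to 3. For falling oocyte and maternal effect genes the share on replicate 1 was 0.716, and the median change of the list was -1.52, -2.11 and -2.04. Over the lists of falling genes with at least 5 members it ran from 0.476 to 0.952. It was 0.476 for clearance factors that fell, 0.484 for histone methylation genes that fell, 0.600 for falling cyclins and mitotic genes, and 0.803 for falling mitochondrial ribosomal proteins. Over the lists of rising genes it ran from -0.225, for 5 translation initiation factors, to the 1.00 above. It was 0.739 for chaperones, 0.649 for cytosolic ribosomal proteins, 0.525 for ribosome biogenesis factors, 0.341 for the respiratory chain, 0.226 for mitochondrial ribosomal proteins and 0.123 for the 8 proteasome genes. Falling proteasome genes had a share of 0.952 and falling ribosome biogenesis factors one of 0.910.

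**Figure D4:**
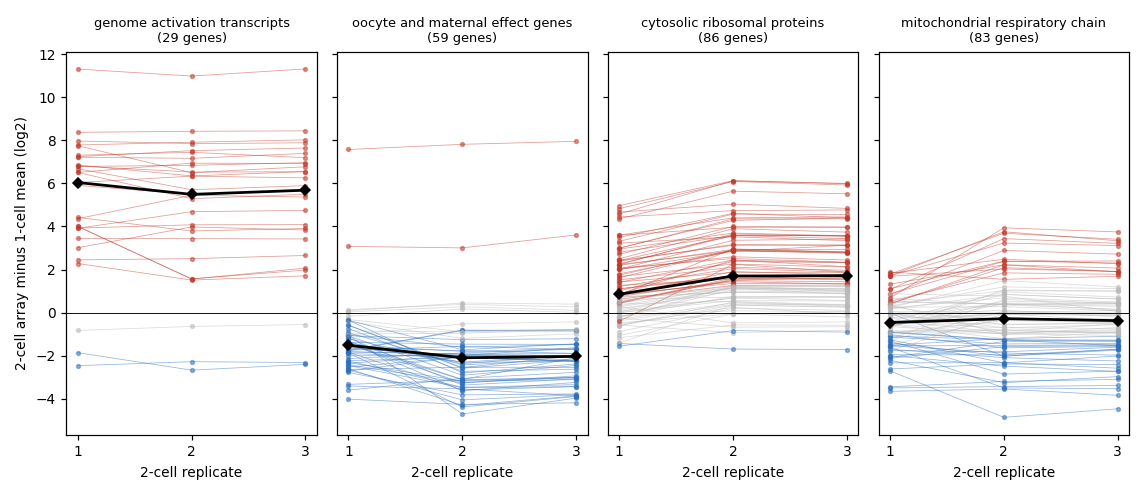
Change of each tested member of 4 gene lists on each 2-cell replicate, as that array minus the mean of the 3 1-cell arrays (log2), with red lines for DEGs that rose, blue for DEGs that fell, grey for genes not called and black diamonds for the median of the list. The median of genome activation transcripts is as high on replicate 1 (6.05) as on replicates 2 and 3 (5.49 and 5.69), while that of cytosolic ribosomal proteins is lower (0.85 against 1.70 and 1.71).

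Single genes differed most where replicate 1 lay near the 1-cell level. The 6 DEGs described next were picked for the largest gap between replicate 1 and the other 2-cell arrays. Tbx1, a T-box factor, stood at 1.93, 2.65 and 2.74 in 1-cell and at 2.85, 10.74 and 10.31 in 2-cell embryos. Stk33, a kinase, stood at 3.93, 4.35 and 4.53 and at 3.23, 10.62 and 11.02, and Islr2 at 3.37, 2.28 and 2.46 and at 4.81, 11.87 and 11.56. Of these, Tbx1 and Stk33 were well above background on 2 of the 3 2-cell arrays, and the change rests on replicates 2 and 3. Of the 3 1-cell arrays, Tbx1 and Islr2 were well above background on 0 and Stk33 on 1. For Tbx1, 2 of the 6 values were filled in, so these low values are not measured levels. Ercc5, a nuclease of DNA repair, stood at 9.52, 9.58 and 9.58 and at 9.53, 5.20 and 5.24, and another probe for it gave an LFC of 0.85. Arhgef10l stood at 8.67, 8.57 and 8.63 and at 7.64, 4.09 and 3.80, and was well above background on 2 of the 2-cell arrays. Reg2 was read on 1 of 3 1-cell arrays and on no 2-cell array, and 4 of its 6 values were filled in, so that its values carry no order.

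Within each slide the stages were also compared array by array. On slide 1, which held replicate 1 of both stages, 2364 genes were higher and 4417 lower by at least 1 in the 2-cell array, on slide 2 the numbers were 3482 and 6021, and on slide 3 they were 3314 and 5841. Of the DEGs that rose, 94.9, 99.9 and 100.0% were higher in the 2-cell array of slides 1, 2 and 3, and of those that fell 98.8, 99.9 and 100.0% were lower. The LFC behind these calls came from the same arrays, so high shares were fixed in advance and are no separate test. Without 2-cell replicate 1 the test called 3513 genes higher and 5334 lower, with 7891 of the 8338 DEGs called in the same direction. The list counts were close to those above, with 26 of 29 genome activation transcripts higher, 47 of 59 oocyte and maternal effect genes lower and 60 of 86 cytosolic ribosomal proteins higher.

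The levels of the named genes at other stages place the change in development, as means of 3 arrays scaled to the 75th percentile of each array. Gm8300 was not well above background in GV oocytes, MII oocytes and 1-cell embryos, stood at 15.44 ± 0.33 (SD, n = 3) in 2-cell embryos and then at 12.54 ± 0.15 in 4-cell and 10.91 ± 0.19 in 8-cell embryos. BB287469 and Zfp352 had the same order, with 17.38 ± 0.39 and 15.54 ± 0.04 in 2-cell and 13.40 ± 0.25 and 12.07 ± 0.11 in 4-cell embryos. Zscan4c stood at 8.79 ± 0.17, 11.94 ± 1.38 and 7.91 ± 0.91 in 1-, 2- and 4-cell embryos. Their highest level of the 8 stages was thus in 2-cell embryos, with the widest spread for Zscan4c.

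Other genes that rose stayed high at later stages. Mt1 stood at 16.68 ± 1.23 in 2-cell embryos and between 16.74 and 17.81 in later stages, and Dppa4 went on from 11.73 ± 0.50 to 13.48 ± 0.03 in 4-cell embryos. Hdac1 stood at 10.02 ± 0.09 in GV oocytes, 8.14 ± 0.38 in 1-cell, 15.01 ± 0.36 in 2-cell and 15.80 ± 0.04 in 4-cell embryos. Obox6 went from 13.81 ± 0.63 in 2-cell to 16.48 ± 0.02 in 8-cell embryos while Obox1 went from 16.40 ± 0.79 to 10.51 ± 0.19. Rpsa was high in GV oocytes (14.50 ± 0.05), low in MII oocytes (8.98 ± 0.13) and 1-cell embryos (8.35 ± 0.24) and high again in 2-cell (14.58 ± 0.46) and 4-cell embryos (17.30 ± 0.09). Over the 86 cytosolic ribosomal proteins the median level followed the same course, with 14.10, 11.40, 11.67, 13.84 and 17.04 in GV and MII oocytes and 1-, 2- and 4-cell embryos.

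Of the genes that fell, Mos went on from 6.33 ± 0.16 in 2-cell embryos to a signal not well above background in 4-cell embryos, and Zar1l from 11.19 ± 0.13 to 9.01 ± 0.25. Dnmt3a was not well above background in 4-cell embryos and returned to 8.95 ± 0.07 in morulae. Hdac3 was read on every array of oocytes, 1-cell embryos, 8-cell embryos, morulae and blastocysts, on 1 of 3 arrays of 4-cell embryos and on none of 2-cell embryos. Bms1 stood at 13.31 ± 0.03 in 1-cell, 8.83 ± 0.15 in 2-cell and 10.86 ± 0.11 in 4-cell embryos. The median of the 59 oocyte and maternal effect genes fell from 14.73 in 1-cell to 12.71 in 2-cell, 8.76 in 4-cell embryos and 3.72 in blastocysts.

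**Figure D5:**
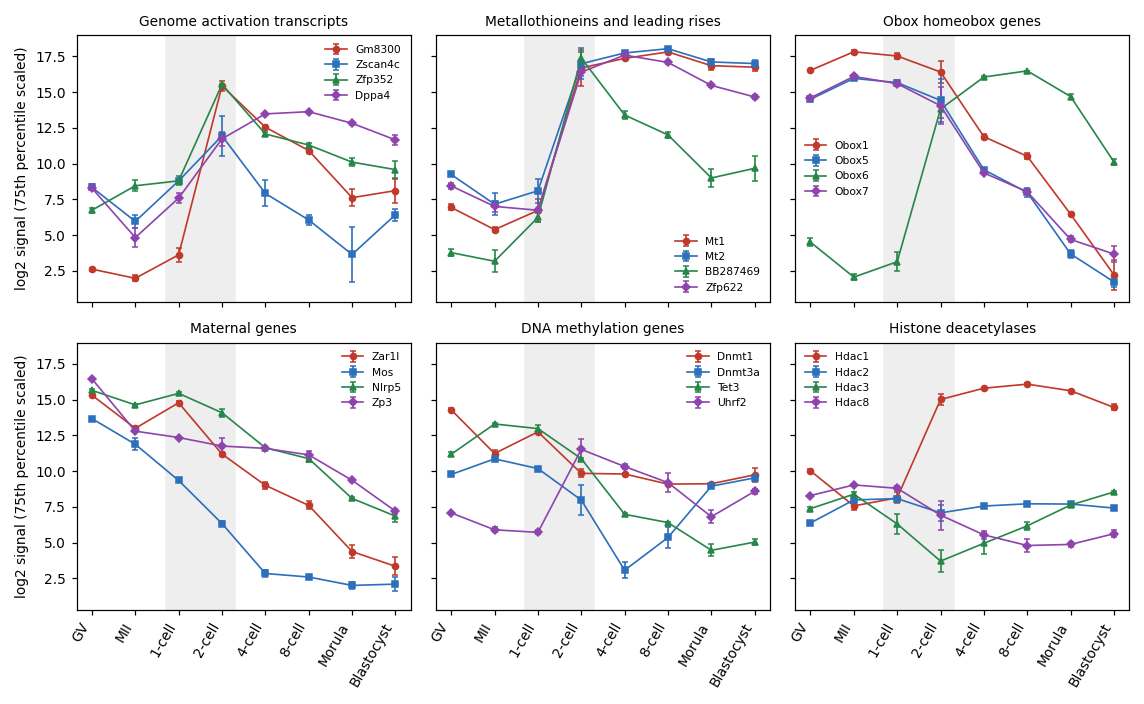
Mean log2 signal (scaled to the 75th percentile of each array) of single genes in GV and MII oocytes and in untreated embryos from the 1-cell stage to the blastocyst, with bars for the SD of 3 arrays and the 1-cell and 2-cell stages shaded. Gm8300, Zscan4c, Zfp352 and BB287469 are highest in 2-cell embryos, Mt1, Mt2 and Hdac1 stay high afterwards, and Mos and Zar1l go on falling; levels of different genes come from different probes and are not comparable.

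The same step was measured on other arrays, in embryos exposed to an inhibitor, where both stages of one inhibitor share no array with the untreated embryos. In T247-treated embryos 2565 genes (16%) were higher and 6499 (40.6%) lower at the 2-cell than at the 1-cell stage, and in MGCD0103-treated embryos 2223 (13.9%) and 5388 (33.7%). Of the untreated DEGs that rose, 68.9% also rose with T247 and 58.4% with MGCD0103, which was 79.9% and 78.1% of the genes that rose with each inhibitor. Of those that fell, 86.4% and 74.3% also fell, which was 71.3% and 74.0% of the genes that fell with each inhibitor. Opposite calls were found for 46 and 107 genes. The LFC of BB287469 was 10.53 with T247 and 10.82 with MGCD0103, beside 10.57 in untreated embryos, and that of Bms1 was -5.99 and -5.40, beside -5.05. That of Zfp622 was 6.44 and 5.63, beside 9.09, and that of Obox6, whose 1-cell level is dim, stood at 6.69 and 6.44 beside 10.11. These values stand side by side, and the difference between treated and untreated embryos was not tested here. Arrays of each inhibitor lay on other slides and scans than the untreated arrays, so treatment and slide cannot be told apart. Normalization, detection filter and spread per gene were shared by all arrays of the fit, so these contrasts are not separate data in full.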

How the data were processed

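RNA of 100 embryos per array was extracted with a PicoPure kit, labelled with a Low Input Quick Amp kit and hybridized to 1-colour Agilent mouse arrays. The deposited intensity values had been background-subtracted within each array by the authors with Agilent Feature Extraction (version 10.7.1.1 in the file headers, 9.5.1.1 in the submitters' processing notes) and were not normalized between arrays. The log2 values of the series matrix were normalized by the authors with smooth quantile normalization after missing spots had been filled in, and served here as an alternative only. All columns of sample values were used (0 left out).

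Probes were named through RefSeq by accession (27235 probes), symbol (3581) or synonym (565), and 24300 stayed unnamed. Probes had to be positive and significant on 1 or more of the 3 arrays in every one of 8 conditions (1-cell and 2-cell embryos untreated or with T247 or MGCD0103, 4-cell embryos untreated or with T247), and the brightest probe of a gene was used. Missing values (2.77%) were filled in from a robust covariance with a median error of 0.209 (log2) on hidden values. The hidden values were detected spots below the median signal, so the error at undetected spots is not known. Smooth quantile normalization was written for this work after its description. limma 3.58.1 in R 4.3.3 was fitted over 24 arrays with no block. The 3 arrays of a stage are separate pools by their labels, and their number limits the precision.

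In a test on simulated data the fit for 2-cell against 1-cell embryos recovered 88.1% of genes changed by an LFC of 1.5, 97.0% at 2 and 98.5% at 3, and called 1 unchanged gene, among 15989 genes. The simulation changed 67, 67 and 66 genes by these sizes, in both directions, with normal noise of one spread per gene. In the data 52.1% of genes were called and 2-cell replicate 1 differed from the others. These rates therefore cannot be carried over to the data. A comparison of promoters between gene sets is void, because fewer than 80% of the genes of a set had a promoter. Where the dim stage of a probe was well above background on no array, the fold is a lower bound against the lowest signal well above background.

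Genes and 24 gene lists were chosen with earlier results of these data known. The genes named are the 12 largest rises and falls among genes well above background on all 6 arrays without overlap, the 10 largest bounds in each direction, the largest called rise and fall of each list, members of the lists on genome activation, Obox genes, oocyte and maternal effect genes, DNA methylation, acetylation and pluripotency, and the 6 genes with the largest gap of 2-cell replicate 1 where replicates 2 and 3 differed by under 0.5. Further list members were named for their known role, after their values were seen. Alternatives covered scaling, background, detection, filling, probes, arrays in the fit, array weights, replicate and slide blocks, a test against an LFC of 1, the authors' values and each array left out.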

Additional observations from a re-analysis of the deposited data

Results flagged for a closer look

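Of 24300 probes without a current gene name, which no comparison above used, 759 were well above background on all 3 untreated 2-cell arrays and on none of the 1-cell arrays. The reverse was found for 277 probes. They were singled out because they carry signal at one stage outside the genes tested, and what they read is unknown here.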

How the results depend on the processing

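The number of DEGs higher in 2-cell embryos was 1631 when genes had to be well above background on all 6 arrays, which leaves 11969 genes, and 1675 with the authors' series matrix values, on 10828 genes. The number lower was 3134 after scaling to the 75th percentile and 3462 in a test against an LFC of 1. The median LFC of all genes was -0.28 after quantile normalization, 0.11 after scaling to the 75th percentile, -0.26 with normexp background correction, -0.33 with detection at either stage, -0.66 with all 6 arrays well above background and -0.56 with the series matrix. Leaving out each array in turn gave 7966 to 8847 DEGs, with 2587 to 3513 higher and 5000 to 5711 lower. The replicate numbers were not used as pairs, because the deviations of arrays with the same number correlated at 0.089, 0.036 and 0.108, and the replicate block gave 2965 DEGs higher and 5363 lower, or 2650 and 4963 in the 6 untreated arrays alone, where the fit without a block gave 2664 and 5010. With the slide as a block the counts were 2975 and 5369. Opposite calls numbered 21 with the mean of probes and at most 4 under every other setting. Over 172 named genes and 3855 pairs of gene and setting, 3764 kept direction and side of the threshold, 58 were no longer called, 16 became called and 17 changed sign. With the mean of probes Fgf1 stood at -0.43, Sp110 at 0.49, Obox3 at 4.47, Nr5a2 at 0.69, Tet1 at 0.49 and Brd2 at -0.0133. Pou5f1 stood at 0.50 (quantile), 0.40 (75th percentile) and 0.0635 (array weights), and Nanog at -0.12 (quantile), at -0.0894 in the 6 arrays alone with or without the block, and between -0.0305 and 0.198 with an array left out. Reg2 stood between -4.41 and 0.83 with an array left out, the highest without 1-cell replicate 2. The cause was not tested. Probes near background limit what can be read at low signal, and of 2331 DEGs with a further probe 172 (7.38%) had one that moved by at least 1 the other way.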
